A study of Arabidopsis thaliana with 27 samples.

Results

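Transcripts of 35 circadian clock and clock-output genes were examined in shoots of Arabidopsis thaliana, among the 33602 genes of the expression table. The genes were chosen by identifier as the known core of the plant clock, namely the MYB factors LHY, CCA1 and the REVEILLE (RVE) family, the pseudo-response regulators (PRRs), the evening complex, GI and the ZTL family, the LNK genes and CHE, together with the output genes CO, the CDFs, GRP7, GRP8, PIF4 and PIF5. AT5G52660, a MYB-like protein gene, and AT1G69570, a Dof-type zinc finger gene, carry no symbol in the reference table and are called by identifier. All plants were wild-type Col-0 and spent 7 days on medium with iron and phosphate (+Fe+P). They were then moved to fresh +Fe+P, to medium from which iron was omitted (−Fe+P) or to medium without iron and with strongly lowered phosphate (−Fe−P). Shoots were taken 39, 52 and 76 h after the move, with 3 samples for each of the 9 groups. Per the study's methods the seedlings grew on sucrose-free agar plates at constant temperature in continuous light. The 52 and 76 h harvests lie a day apart and the 39 h harvest does not share their time of day, while the clock hour of each harvest is not given in the sources used here.

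The plant clock is a set of genes that repress and activate each other in turn, so that each is most abundant at its own time of day and continues to cycle in continuous light. LHY and CCA1 peak at dawn and repress evening genes, the PRRs follow through the day and repress LHY and CCA1, and TOC1 and the evening complex close the loop after dusk. In leaves the clock times photosynthesis, growth and flowering, and in Arabidopsis the supply of iron is known to act on the pace of the clock.

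Expression was in TPM, the abundance of a transcript per length of gene on a scale with the same total in every sample, and 34 of the 35 genes averaged 1 TPM or more across the 27 samples and were tested. AT1G69570, at a mean of 0.406 TPM, was not. Differences are log2 fold changes of TPM + 0.5, and a gene was called up- or downregulated at an adjusted p under 0.05 with a change of at least 2-fold. The reads per sample recovered from the values ran from 25.6 to 56.5 megareads, and the tested members had a median of at least 66 reads per sample, the fewest being for PRR9 (13 to 256 reads). The summed level of 4 leaf photosynthesis genes was 46700 to 69900 TPM in every sample, and that of 6 root genes 0.228 to 16.7 TPM. The −Fe−P 39 h replicate 1 stood apart from its group: 507 genes differed at least 2-fold from both other samples, against 17 to 115 in the other 26 samples, and so did 6 of the 35 clock genes, against 0 to 2. Its 7 seed storage genes summed to 59.2 TPM and those of every other sample to at most 7.02 TPM. In bulk tissue, fewer cells of a type and less RNA per cell cannot be told apart. The sources do not tie the replicates to separate experiments, and p-values therefore cover the scatter among these samples alone.

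Promoters of the genes were read first, because a short sequence called the evening element is known to be bound by LHY and CCA1 and by RVE8, and the G-box by light-regulated factors including the PIFs. In the window from 250 bases before to 50 bases after the gene start, with both strands read, the evening element AAAATATCT was found in 9 of the 35 genes (25.7%). Lists of genes by time of peak were written from general knowledge, with earlier results of these data known. Among the 11 genes listed as peaking in the afternoon or evening the evening element was found in 7 (63.6%). Among the 18 listed as peaking at dawn or in the morning it was found in 2 (11.1%), RVE7 and PRR9. Over the promoters of all 27443 protein-coding genes the share was 2.82%. The G-box CACGTG was distributed the other way, with 11 of 18 dawn and morning genes (61.1%), 3 of 11 afternoon and evening genes (27.3%) and 7.68% of all promoters. The CCA1-binding site AAAAATCT was found in 5 of the 35 genes (14.3%, against 7.88% of all) and the LUX-binding sites GATTCG and GATACG in 8 (22.9%, against 14.5%). These matches are descriptions of the letters and not of bound sites, and no search motif contains another.

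The 200 bases before the gene start are shown for 4 evening-expressed genes that held an evening element there. They run 5′ to 3′ in the direction of the gene, from the RefSeq assembly TAIR10.1: TOC1 (chr5:24674763-24674962, plus strand), BOA (chr5:24003688-24003887, plus strand), FKF1 (chr1:25508439-25508638, plus strand) and GRP7 (chr2:9266558-9266757, minus strand). Capitals mark evening elements on either strand and G-boxes.
TOC1: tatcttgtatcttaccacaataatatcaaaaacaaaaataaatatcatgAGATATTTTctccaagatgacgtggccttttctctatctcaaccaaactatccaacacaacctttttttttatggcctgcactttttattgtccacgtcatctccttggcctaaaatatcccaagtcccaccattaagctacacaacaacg
BOA: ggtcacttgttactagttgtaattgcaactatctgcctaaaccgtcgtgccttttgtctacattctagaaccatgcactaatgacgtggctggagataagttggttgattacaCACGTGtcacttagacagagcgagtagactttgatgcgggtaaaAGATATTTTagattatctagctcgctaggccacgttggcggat
FKF1: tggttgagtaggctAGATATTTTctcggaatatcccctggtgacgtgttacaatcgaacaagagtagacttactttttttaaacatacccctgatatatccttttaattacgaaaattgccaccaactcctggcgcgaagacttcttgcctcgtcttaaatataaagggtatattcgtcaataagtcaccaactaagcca
GRP7: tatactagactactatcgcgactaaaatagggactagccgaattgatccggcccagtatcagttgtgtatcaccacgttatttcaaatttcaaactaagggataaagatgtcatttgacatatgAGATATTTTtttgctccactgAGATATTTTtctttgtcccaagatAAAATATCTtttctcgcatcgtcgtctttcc

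GRP7 held 3 evening elements within this stretch, while FKF1 held a further match that begins at the gene start itself and lies outside it. BOA, a close relative of the evening complex gene LUX, held a G-box as well. For comparison the same stretch is given for 4 dawn and morning genes whose levels moved in the opposite direction: LHY (chr1:37872-38071, minus strand), CCA1 (chr2:19245391-19245590, plus strand), LNK3 (chr3:3923315-3923514, plus strand) and PRR9 (chr2:19232407-19232606, plus strand).
LHY: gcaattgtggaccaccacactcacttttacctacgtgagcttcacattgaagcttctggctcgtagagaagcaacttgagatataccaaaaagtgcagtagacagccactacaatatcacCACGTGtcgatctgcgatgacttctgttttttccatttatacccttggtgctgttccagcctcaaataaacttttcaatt
CCA1: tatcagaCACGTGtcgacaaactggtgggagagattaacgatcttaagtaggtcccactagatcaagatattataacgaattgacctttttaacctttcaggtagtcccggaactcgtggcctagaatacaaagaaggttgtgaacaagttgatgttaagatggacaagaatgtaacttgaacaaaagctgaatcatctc
LNK3: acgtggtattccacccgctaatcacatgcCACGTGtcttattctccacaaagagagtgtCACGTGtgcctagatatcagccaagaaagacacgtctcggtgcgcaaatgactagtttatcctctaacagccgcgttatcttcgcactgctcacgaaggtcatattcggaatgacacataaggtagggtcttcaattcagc
PRR9: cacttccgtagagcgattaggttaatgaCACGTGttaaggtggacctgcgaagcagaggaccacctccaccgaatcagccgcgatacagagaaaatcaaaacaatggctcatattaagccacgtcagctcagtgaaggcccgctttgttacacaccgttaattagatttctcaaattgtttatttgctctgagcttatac

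No evening element lay in these 4 stretches, and each held at least 1 G-box, with 2 in LNK3. Of the genes downregulated in −Fe+P at 76 h, these 4 are the ones with a G-box in the stretch, so no weight is put on its presence in each. The stretches shown do not stand for every called member. PRR3 and ELF4, upregulated in −Fe−P at 76 h, held no evening element in the window. CDF3 and LNK4, downregulated in −Fe+P at 76 h, held neither motif. RVE8 and LNK2, also downregulated there, held a G-box only past the gene start. The PRR9 evening element lies past the gene start, 27 bases in.

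**Figure D1:**
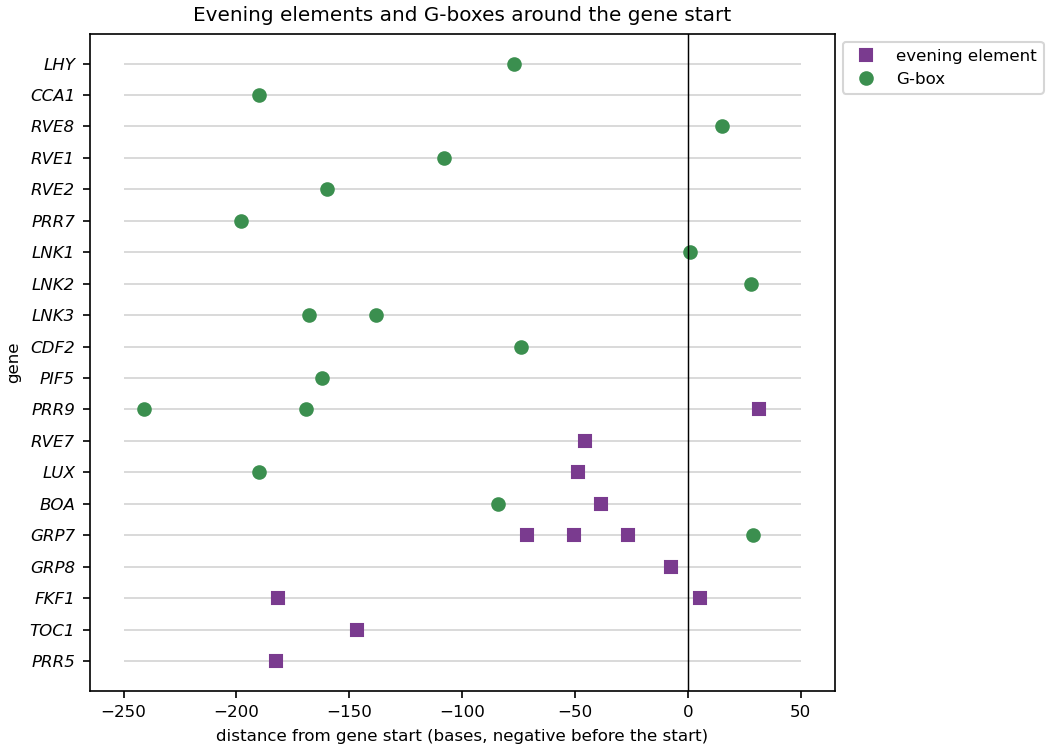
Position of evening elements (squares) and G-boxes (circles) in the window from 250 bases before to 50 bases after the gene start, for the 20 genes with at least 1 match. The horizontal axis is the distance from the gene start in bases. Rows were ordered by hand, with the genes that held only a G-box above those that held an evening element, so the split between upper and lower rows follows from this order. PIF5, in the upper rows, is in neither list by time of peak, and RVE7 and PRR9, in the lower rows, are dawn and morning genes.

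In the control medium the clock genes changed widely between 39 and 52 h and did not measurably change between 52 and 76 h. From 39 to 52 h in +Fe+P, 15 of the 34 genes were upregulated and 4 downregulated, while 0.962% of all 18910 tested genes were called (0.724% higher, 0.238% lower). The median absolute log2 change was 1.19 for the clock genes and 0.149 for all tested genes. Those upregulated were LHY, CCA1, RVE8, RVE1, PRR7, PRR9, all 4 LNKs, CDF1, CDF2, CDF3, PIF4 and PIF5, and those downregulated PRR3, ELF4, FKF1 and GRP7. Of the 17 tested dawn and morning genes 13 were upregulated and of the 11 afternoon and evening genes 4 downregulated, with median log2 changes of 1.74 and −0.885 beside −0.103 for all tested genes.

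LHY and CCA1 are the dawn repressors. LHY (AT1G01060) held 24.4, 14.8 and 16.1 TPM at 39 h, 92.3, 70.5 and 95.7 TPM at 52 h and 79.3, 104 and 97.1 TPM at 76 h. CCA1 (AT2G46830) held 14.4, 7.99 and 7.21 TPM, then 56.4, 39.9 and 63 TPM, then 43.3, 71.7 and 68.5 TPM. All samples at 52 and 76 h lay above all at 39 h for both genes, and the 52 and 76 h samples overlapped. Separate groups were common, since 39.8% of all tested genes had no overlap between 39 and 52 h in +Fe+P, and no weight is put on it. The increases from 39 to 52 h were 2.21 for LHY (SE 0.298, adjusted p = 6.77e-05) and 2.41 for CCA1 (SE 0.337, adjusted p = 0.000103). RVE8 (AT3G09600), an activator of evening genes that is built like LHY and CCA1 but acts in the opposite direction, held 21.7, 17.7 and 18.4 TPM at 39 h and 51.3, 42.5 and 53 TPM at 52 h, without overlap. Its change was 1.32 (SE 0.218, adjusted p = 0.000421). RVE1 (AT5G17300), a MYB factor that links the clock to auxin synthesis, held 10.5, 11.3 and 10.1 TPM at 39 h and 35.8, 33.9 and 40.8 TPM at 52 h, and its change of 1.74 (SE 0.359, adjusted p = 0.00317) was the largest of the output MYB genes.

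Among the LNKs, coactivators that work with RVE8, LNK4, LNK3 and LNK2 had the largest log2 changes of the set. This ranking holds for the scale used here, with a constant added to TPM. LNK4 (AT5G06980) held 5.47, 1.62 and 1.56 TPM at 39 h and 26.5, 16.8 and 29.9 TPM at 52 h, a log2 change of 3.03 (SE 0.433, adjusted p = 0.000111). LNK3 (AT3G12320) held 5.51, 1.72 and 1.51 TPM and then 23.9, 13.6 and 26.9 TPM, with a change of 2.82, and LNK2 (AT3G54500) held 21.7, 11.2 and 10.4 TPM and then 102, 65.5 and 121 TPM, with a change of 2.73. In all 3 genes replicate 1 was the highest of the 39 h samples and still lay below every 52 h sample. PRR9 (AT2G46790), the earliest of the day-phased repressors, was scarce and held 0.57, 0.239 and 0.234 TPM at 39 h and 2.8, 2.63 and 3.91 TPM at 52 h, a change of 2.10 (SE 0.207, adjusted p = 2.67e-06). The added constant understates the change of a gene this scarce. In plain TPM the group mean of PRR9 rose from 0.348 to 3.11 and that of LNK4 from 2.88 to 24.4. These are means of TPM and not of logs, and replicate 1 at 5.47 TPM raised the LNK4 mean at 39 h. Which of these genes changed more without the constant is therefore not settled by these means. PRR7, the partner of PRR9, had a log2 change of 1.90.

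PRR3, FKF1, ELF4 and GRP7 ran the other way. PRR3 (AT5G60100), which is known to protect TOC1 protein from breakdown, held 25, 29.6 and 26.4 TPM at 39 h and 11, 9.7 and 9.79 TPM at 52 h, the largest fall in the set (−1.37, SE 0.192, adjusted p = 0.000104). FKF1 (AT1G68050), a blue-light receptor that helps remove the CDFs, held 11.1, 13.2 and 10.5 TPM and then 5.21, 3.9 and 4.1 TPM, a change of −1.31 (SE 0.267, adjusted p = 0.0029). ELF4 (AT2G40080), a subunit of the evening complex, held 59.2, 58.7 and 54.8 TPM and then 33.1, 24.2 and 24.9 TPM, a change of −1.07. The 52 h samples of each of these genes lay below the 39 h samples, within the 39.8% background given above. TOC1 (AT5G61380) and BOA (AT5G59570) passed the adjusted p but stayed under 2-fold, at −0.89 and −0.90. GRP7 (AT2G21660), an RNA-binding protein gene with its own feedback cycle and the most abundant member (mean 1050 TPM over all samples), held 1400, 1470 and 1180 TPM at 39 h and 730, 628 and 656 TPM at 52 h. Its change of −1.01 stood at the 2-fold limit (adjusted p = 0.0108) and did not pass with 1 of 4 different samples left out or with scaling by the median of ratios.

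Among the outputs, PIF4 (AT2G43010), a growth-promoting factor, held 4.72, 3.24 and 3.12 TPM at 39 h and 23.2, 17 and 26.5 TPM at 52 h, a change of 2.44 (SE 0.242, adjusted p = 2.67e-06). CDF3 (AT3G47500), of a family that represses the flowering gene CO in the morning, held 10.5, 6.49 and 7.09 TPM and then 26.6, 17.9 and 27.5 TPM, a change of 1.53. CHE (AT5G08330), a repressor of CCA1, held 20.4, 23.7 and 20 TPM and then 30.3, 28.3 and 30.9 TPM, and its difference of 0.47 did not pass (adjusted p = 0.171) although the samples did not overlap. CO, ZTL, LKP2, RVE2 and AT5G52660 differed between the times by between −0.07 and 0.16.

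Between 52 and 76 h in +Fe+P, 0 of the 34 genes were called by limma, and 0 reached even an unadjusted p under 0.05, while 0.0106% of all tested genes were called. The count stayed at 0 in every alternative tried. LHY differed by 0.12 (SE 0.298), CCA1 by 0.19 (SE 0.337), TOC1 by 0.01 (SE 0.124) and LNK4 by 0.15 (SE 0.433), and the differences of all 34 genes ran from −0.192 to 0.299. From 39 to 76 h the counts in this medium were 16 higher and 3 lower, beside 1.91% of all tested genes (1.52% higher, 0.391% lower).

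**Figure D2:**
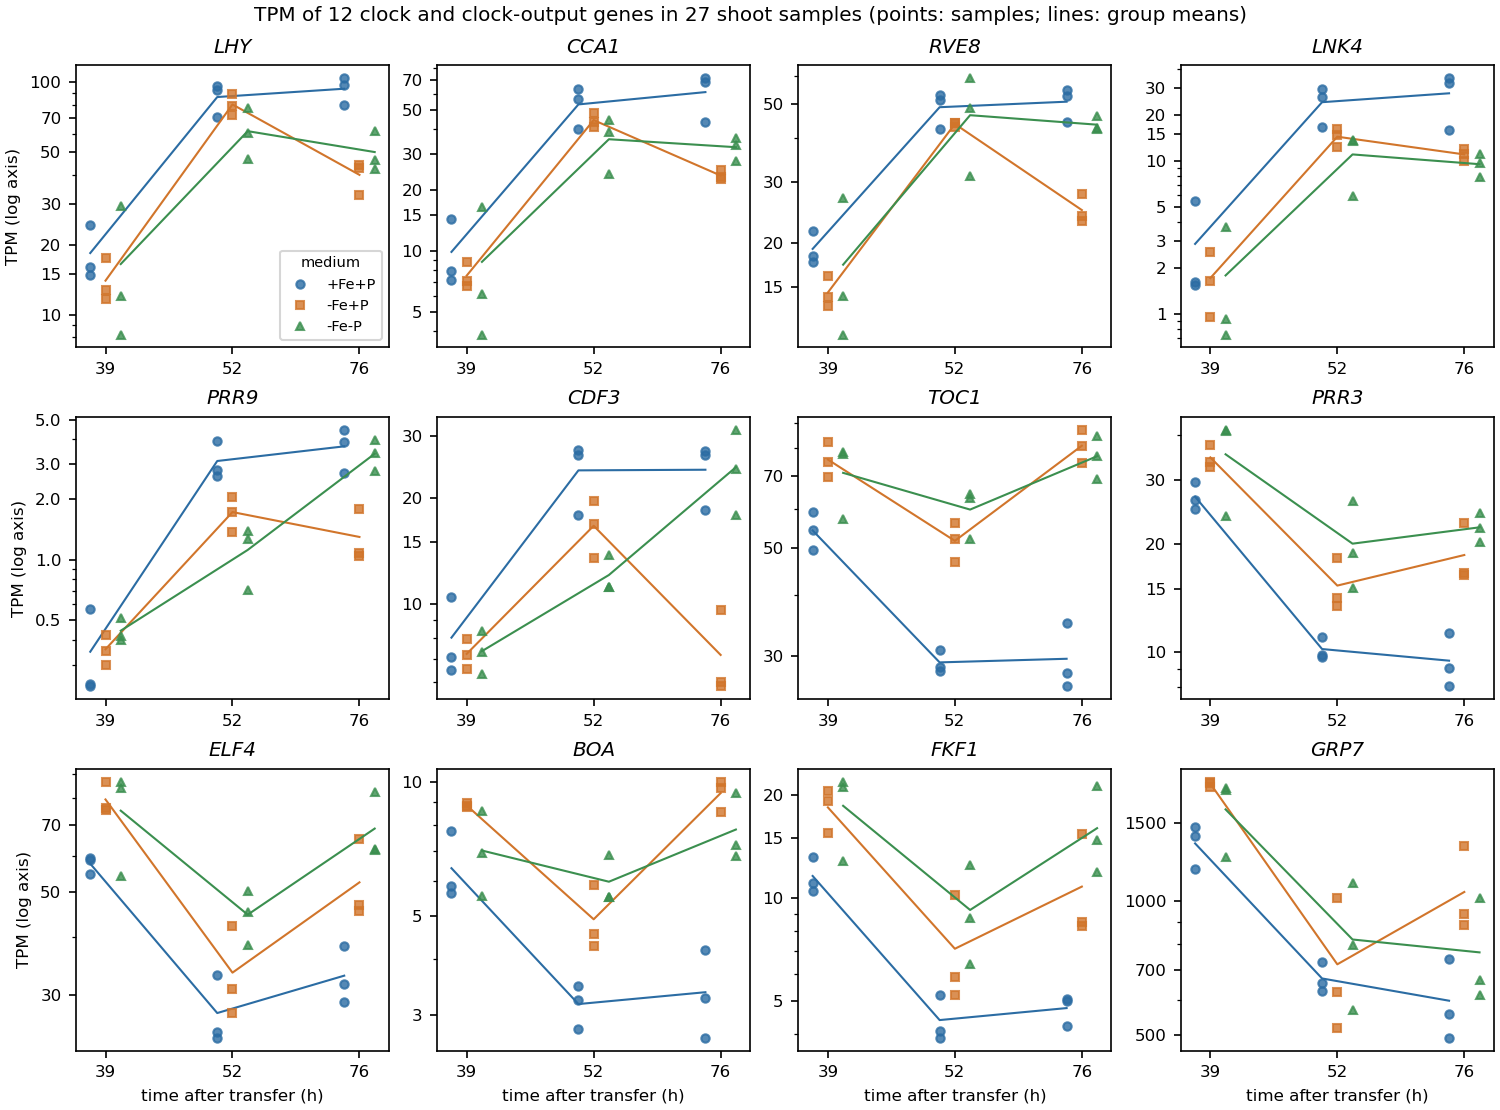
TPM of 12 genes in all 27 samples, on a log axis, against time after transfer in hours. Points are samples, lines join group means, and colour and shape give the medium. LHY, CCA1, RVE8, LNK4, PRR9 and CDF3 were low at 39 h and high at 52 h in +Fe+P, and TOC1, PRR3, ELF4, BOA, FKF1 and GRP7 were high at 39 h. At 76 h the −Fe+P samples of LHY lay at 32.7 to 44.2 TPM and those of +Fe+P at 79.3 to 104 TPM.

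The step from 39 to 52 h was also present in both deficient media. In −Fe+P, 15 genes were upregulated and 4 downregulated (2.6% of all tested genes called, 2.45% higher and 0.143% lower), and −Fe−P had 12 upregulated and 1 downregulated (3.19% of all, 3.01% and 0.185%). In all 3 media LHY, CCA1, RVE8, RVE1, the 4 LNKs, CDF1, CDF2, PIF4 and PIF5 were upregulated, 12 genes, and GRP7 was downregulated. The median absolute log2 change was 1.15 in −Fe+P and 0.8 in −Fe−P, against 0.153 and 0.206 for all tested genes. The −Fe−P count was 16 without the −Fe−P 39 h replicate 1 and 17 without the −Fe−P 52 h replicate 1, both of which lay away from their groups: LHY held 29.4, 8.21 and 12 TPM in −Fe−P at 39 h and 46.9, 77.1 and 60.3 TPM at 52 h, with replicate 1 highest at 39 h and lowest at 52 h.

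RVE1 and PIF4 kept this step in the deficient media. RVE1 held 15.5, 6.35 and 8.31 TPM at 39 h and 59.1, 54.5 and 58.4 TPM at 52 h in −Fe+P (2.55, SE 0.359, adjusted p = 7.76e-05), and 22.8, 5.68 and 5.06 TPM followed by 32.4, 62 and 48.7 TPM in −Fe−P (2.33). The 39 and 52 h samples did not overlap, as for 35.4% of all tested genes in −Fe+P and 37.5% in −Fe−P, and in −Fe−P replicate 1 was again the one nearest the other time. PIF4 held 5.67, 4.36 and 7.53 TPM and then 23.8, 17.2 and 24.1 TPM in −Fe+P (1.82), and 4.9, 4.87 and 4.8 TPM and then 11, 16 and 15.6 TPM in −Fe−P (1.44). GRP7 held 1810, 1850 and 1860 TPM at 39 h and 1020, 624 and 520 TPM at 52 h in −Fe+P (−1.41, SE 0.244, adjusted p = 0.000471). In −Fe−P its values were 1260, 1780 and 1800 TPM and then 1100, 570 and 799 TPM (SE 0.244, adjusted p = 0.00298), a call at the 2-fold limit. TOC1 held 82.4, 69.8 and 74.8 TPM at 39 h and 56.1, 46.8 and 52.1 TPM at 52 h in −Fe+P (−0.55, adjusted p = 0.00433), under 2-fold. In −Fe−P it held 57.2, 78.5 and 77.6 TPM and then 64.4, 52 and 63.1 TPM, which overlapped (−0.24, adjusted p = 0.145).

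**Figure D3:**
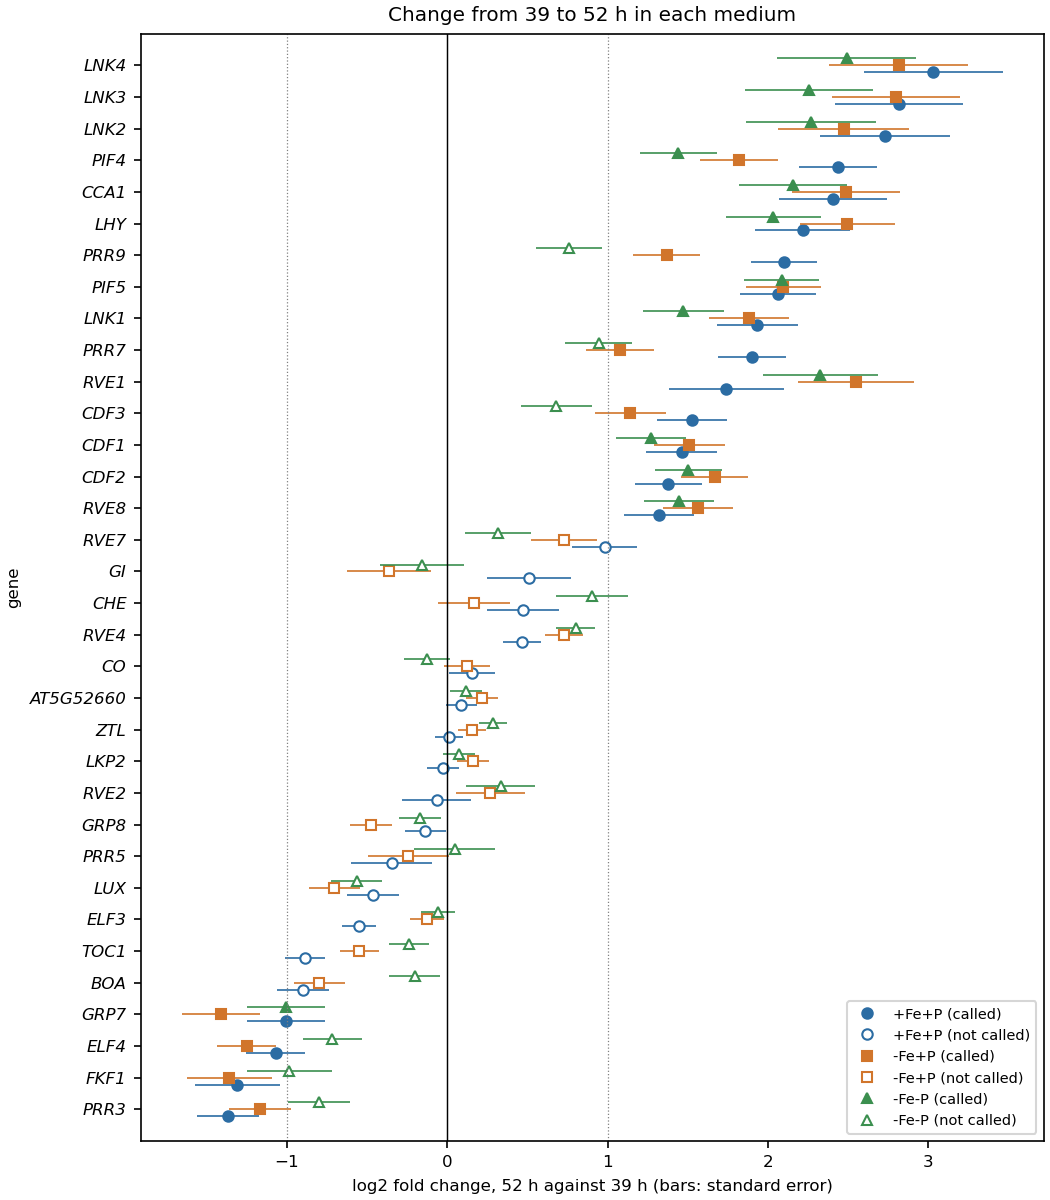
Log2 fold change from 39 to 52 h of the 34 tested genes in +Fe+P (circles), −Fe+P (squares) and −Fe−P (triangles), with standard errors as bars. Filled symbols passed the adjusted p and the 2-fold minimum, whose limits are dotted. LNK4 at the top changed by 3.03 in +Fe+P, and PRR3 at the bottom by −1.37.

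From 52 to 76 h LHY and CDF3 were downregulated in −Fe+P (2 genes, beside 0.904% of all tested genes, 0.74% higher and 0.164% lower), and PRR9 was upregulated in −Fe−P (1 gene, beside 1.99%, 1.54% higher and 0.455% lower). LHY held 78.8, 72.5 and 89.1 TPM at 52 h and 44.2, 42.7 and 32.7 TPM at 76 h in −Fe+P, and its change of −1.01 (SE 0.298, adjusted p = 0.031) was lost under 9 of 15 alternatives. CDF3 held 16.9, 13.5 and 19.6 TPM and then 6.02, 5.84 and 9.65 TPM, a change of −1.18 (SE 0.221, adjusted p = 0.0016) kept in all 15. From 39 to 76 h, 11 genes were upregulated and 0 downregulated in −Fe+P (5.02% of all tested genes called, 4.42% higher and 0.603% lower). The counts of −Fe−P were 13 and 1 (10.5%, 6.34% higher and 4.19% lower).

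Iron lack alone was then compared with the control at each time. At 39 h 0 of the 34 clock genes were called in −Fe+P, where 0.994% of all tested genes were, and at 52 h limma called 0, beside 3.47%, with 14 members at an unadjusted p under 0.05. Without the 2-fold minimum 2 genes passed at 39 h, TOC1 (0.48, adjusted p = 0.0234) and PRR7 (0.73, adjusted p = 0.0429), where 5.88% of all tested genes did and 11 members had an unadjusted p under 0.05. At 52 h 7 members passed in this way, beside 32% of all. The share of the 34 members was thus near the background at 39 h and below it at 52 h. TOC1 led the 7 (0.81, SE 0.124, adjusted p = 4.66e-05) with 56.1, 46.8 and 52.1 TPM above the 30.8, 28 and 28.5 TPM of +Fe+P (44.1% of all tested genes did not overlap in this comparison). PRR9 was the 1 of the 7 below its control, with 1.74, 1.38 and 2.06 TPM against 2.8, 2.63 and 3.91 TPM (−0.69). At 76 h 3 were upregulated and 8 downregulated, beside 5.62% of all tested genes (4.42% higher, 1.2% lower). The 8 that fell were all of the dawn and morning list, whose 17 tested genes had a median log2 fold change of −0.817. The 3 that rose were of the afternoon and evening list, whose 11 genes had a median of 0.663, beside 0.115 for all tested genes. The median of all genes was 0.16 in the same comparison at 52 h. Scaling by the median of ratios brings it to about 0 by construction, and the cause of the shift was not tested.

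TOC1, which represses LHY and CCA1, held 35, 26 and 27.7 TPM in +Fe+P at 76 h but 74.4, 80.8 and 87.1 TPM in −Fe+P. The samples did not overlap, which held for 58.7% of all tested genes in this comparison, and the log2 fold change was 1.44 (SE 0.124, adjusted p = 1.03e-08). BOA held 4.19, 2.67 and 3.28 TPM in +Fe+P but 8.56, 10 and 9.69 TPM in −Fe+P (1.37, SE 0.16, adjusted p = 6.94e-07). FKF1 held 5.08, 4.24 and 4.99 TPM as against 8.31, 8.53 and 15.4 TPM (1.04, SE 0.267, adjusted p = 0.00365), again without overlap, although its call was lost with pseudocount 1, with scaling by the median of ratios, and when either +Fe+P 76 h replicate 2 or the −Fe+P 76 h replicate 3 was dropped. An antisense gene overlaps BOA by 1896 bases at a mean of 0.198 TPM, and the strand of the libraries is not given in the sources used here, so reads of the 2 cannot be told apart. For FKF1 such an overlap spans 21 bases of a gene at 30.3 TPM, for LNK1 245 bases of a gene at 14.3 TPM, close to LNK1 itself at 13 TPM, and for LUX 1507 bases of a gene at 3.84 TPM. CO overlaps by 1967 bases an antisense gene that was not analysed here.

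The dawn genes were lower. LHY held 79.3, 104 and 97.1 TPM in +Fe+P at 76 h and the −Fe+P values given above, a log2 fold change of −1.23 (SE 0.298, adjusted p = 0.00239). CCA1 held 25, 22.7 and 23.1 TPM in −Fe+P, below all 3 control samples (−1.32, SE 0.337, adjusted p = 0.00344). RVE8 held 44.5, 54.8 and 52.8 TPM in +Fe+P but 27.7, 24 and 23.1 TPM in −Fe+P, and at −1.01 (SE 0.218, adjusted p = 0.000864) stood at the 2-fold limit, below which it fell under 5 of 15 alternatives. Neither of its relatives RVE4 and AT5G52660 was called, with 0.40 and −0.04.

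LNK2 held 74.9, 130 and 121 TPM in +Fe+P at 76 h but 45.9, 36.6 and 39.6 TPM in −Fe+P (−1.37, SE 0.406, adjusted p = 0.0102). LNK3 held 15.7, 30.6 and 28.2 TPM and 6.85, 7.09 and 8.94 TPM (−1.59, SE 0.4, adjusted p = 0.00309), and LNK4 held 16, 35.1 and 32.7 TPM and 11.2, 10 and 12.1 TPM (−1.22, SE 0.433, adjusted p = 0.0294). The samples of each gene did not overlap, and the +Fe+P replicate 1 was the lowest control in all 3. The LNK4 call was the weakest of the 11 and was lost on its adjusted p under 6 of 15 alternatives. LNK1 passed only the adjusted p (−0.82, adjusted p = 0.0131). PRR9 held 2.7, 3.89 and 4.45 TPM in +Fe+P but 1.04, 1.08 and 1.79 TPM in −Fe+P (−1.22, SE 0.207, adjusted p = 7.3e-05). The largest difference was that of CDF3, which held 18.5, 27.2 and 26.5 TPM in +Fe+P (−1.69, SE 0.221, adjusted p = 3.05e-06). Its −Fe+P level of 7.17 ± 2.15 TPM at 76 h (SD, n = 3) was close to the 39 h level of 7.22 ± 0.732 TPM in that medium.

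By the adjusted p alone 9 members were higher and 14 lower, 23 of 34, beside 39% of all tested genes. Leaving out 1 sample at a time gave 8 to 14 calls, with 14 when the +Fe+P 76 h replicate 1 was removed. This sample was the lowest control for LHY, CCA1, RVE8, PRR9, CDF3 and the 3 LNKs and the highest for TOC1, PRR3, ELF4, BOA and FKF1. The 6 root genes summed to a median of 9.06 TPM with +Fe+P, 3.79 TPM with −Fe+P and 9.73 TPM with −Fe−P at 76 h, and the leaf genes to 69500, 49800 and 58900 TPM. The part of tissue composition in these results was not tested.

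With phosphate lowered as well, TOC1, BOA and FKF1 were again upregulated at 76 h, joined by PRR3 and ELF4, and of the dawn and morning genes LNK2, LNK3 and LNK4 were downregulated. In −Fe−P against +Fe+P, 0 genes were called at 39 h (2% of all tested genes, with 6 members at an unadjusted p under 0.05), 1 higher and 3 lower at 52 h (5.25%, with 4.45% higher and 0.793% lower) and 5 higher and 3 lower at 76 h (8.94%, with 6.34% higher and 2.6% lower). By the adjusted p alone 3, 17 and 23 members passed at the 3 times, beside 16%, 40.3% and 55.6% of all tested genes. The calls at 52 h were TOC1 (1.02), PRR9 (−1.16), LNK3 (−1.17) and LNK4 (−1.15). Without the −Fe−P 52 h replicate 1 all 4 were lost: TOC1 (0.97) and PRR9 (−0.96) fell below 2-fold, and LNK3 and LNK4 no longer passed the adjusted p (0.119 and 0.19). In that replicate PRR9 held 0.711 TPM, against 1.39 and 1.27 TPM in the other two, and LNK4 5.97 TPM, against 13.9 and 13.6 TPM. Without replicate 2 the count was 8, and without +Fe+P 52 h replicate 3 it was 2.

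At 76 h TOC1 held 77, 69.2 and 84.6 TPM in −Fe−P, a log2 fold change of 1.37 (SE 0.124, adjusted p = 6.2e-09) set beside the 1.44 of −Fe+P, both against the same +Fe+P samples. FKF1 held 14.8, 11.9 and 21.2 TPM (1.61, SE 0.267, adjusted p = 2.61e-05) and PRR3 22.1, 20.2 and 24.3 TPM against 11.3, 8.04 and 9.06 TPM in +Fe+P (1.20, SE 0.192, adjusted p = 1.75e-05). ELF4 held 61.7, 61.9 and 82.3 TPM against 38.3, 28.9 and 31.7 TPM (1.04, SE 0.183, adjusted p = 5.01e-05). BOA held 7.2, 6.81 and 9.43 TPM, and its fold change was 1.10. All −Fe−P samples lay above all +Fe+P samples in these 5 genes. Groups without overlap made up 67.6% of the members and 65% of all tested genes in this comparison, so the separation is near the background. The calls of ELF4 and BOA fell below 2-fold with the median of ratios and also when either +Fe+P 76 h replicate 2 or the −Fe−P 76 h replicate 3 was dropped. All 11 afternoon and evening genes were above 0, with a median of 0.985 beside 0.102 for all tested genes, and 9 of them passed the adjusted p.

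On the dawn side LNK2 held 39.2, 55.5 and 52.2 TPM in −Fe−P at 76 h (−1.12, SE 0.406, adjusted p = 0.0237), LNK3 5.92, 9.06 and 9.46 TPM (−1.52, SE 0.4, adjusted p = 0.0027) and LNK4 7.95, 9.7 and 11.1 TPM (−1.43, SE 0.433, adjusted p = 0.00775), below every +Fe+P sample. The LNK2 call was lost on its adjusted p when any of 3 samples at 76 h was dropped, namely replicate 2 or 3 of +Fe+P or replicate 1 of −Fe−P. LHY held 42.2, 61.6 and 46.3 TPM and CCA1 28, 36.2 and 33.5 TPM. Both lay below all control samples and passed the adjusted p but not the 2-fold minimum, at −0.91 (adjusted p = 0.0131) and −0.87 (adjusted p = 0.0322). RVE8 held 42.3, 46.1 and 42.6 TPM, overlapping the control, and differed by −0.21 (adjusted p = 0.434). The 17 dawn and morning genes had a median of −0.0974. The count of 8 calls became 14 without +Fe+P 76 h replicate 1 and 5 without +Fe+P 76 h replicate 2.

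**Figure D4:**
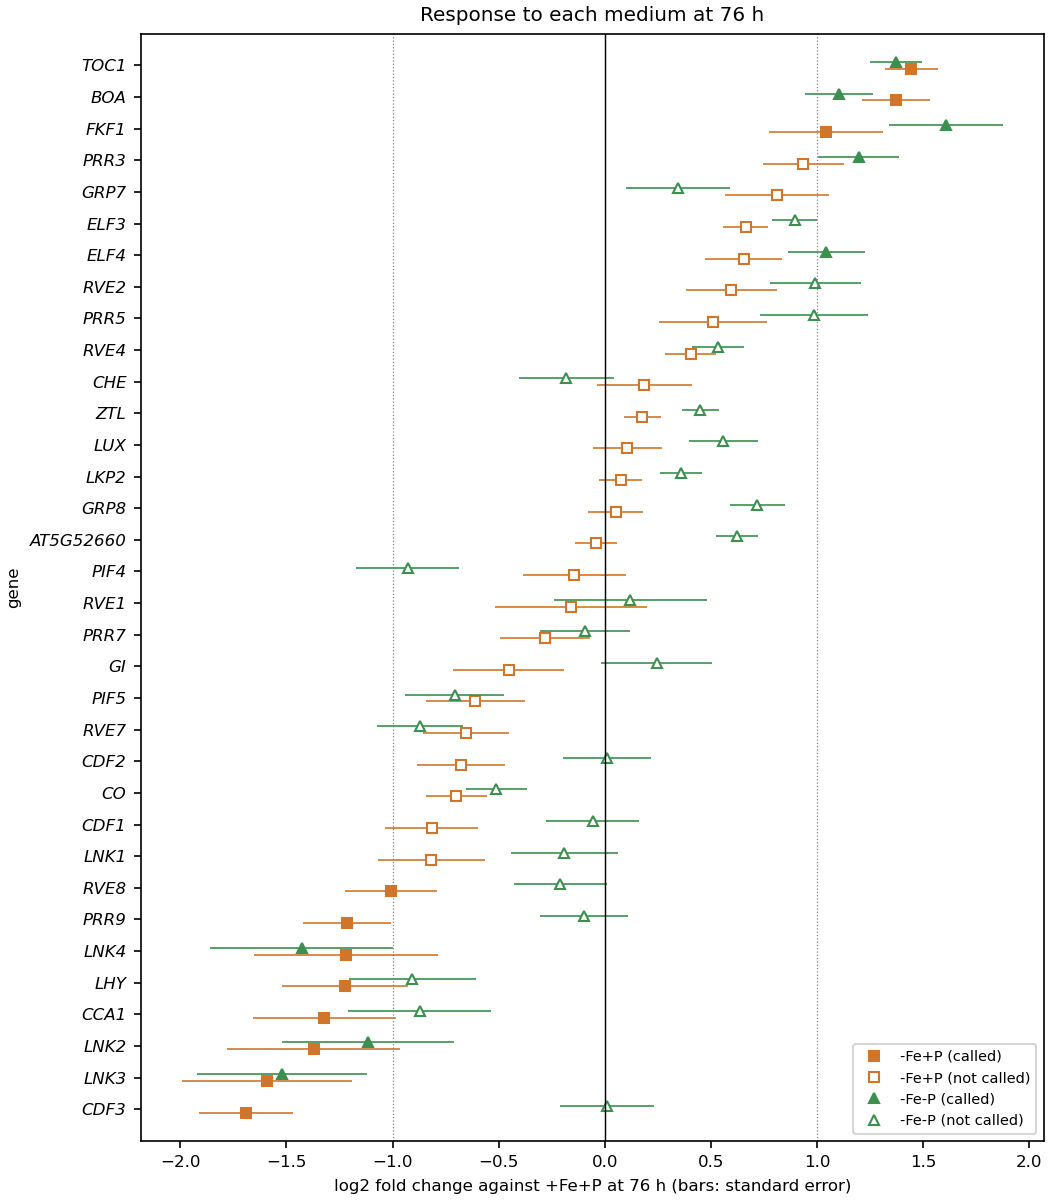
Log2 fold change of the 34 tested genes against +Fe+P at 76 h in −Fe+P (squares) and −Fe−P (triangles), with standard errors as bars, ordered by the −Fe+P value. Both sets use the same +Fe+P samples. Filled symbols passed the adjusted p and the 2-fold minimum. TOC1 was at 1.44 and 1.37, while CDF3 was at −1.69 in −Fe+P and at 0.01 in −Fe−P.

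PRR9 and CDF3 separated the deficient media directly. In −Fe−P at 76 h PRR9 held 2.76, 3.95 and 3.41 TPM and CDF3 17.9, 31.3 and 24.2 TPM, in each case above every −Fe+P sample and overlapping the +Fe+P samples. Between these media 38.2% of the members and 60% of all tested genes did not overlap. In −Fe−P against −Fe+P these were the only 2 of 34 genes called at 76 h, at 1.12 (SE 0.207, adjusted p = 9.75e-05) for PRR9 and 1.70 (SE 0.221, adjusted p = 1.08e-06) for CDF3, while 8.86% of all tested genes were called (4% higher, 4.87% lower). Taken in either direction, the members were below the background in calls and in groups without overlap. The PRR9 call was lost with pseudocount 1. By the adjusted p alone, which 51.3% of all tested genes passed, a further 10 were higher, among them RVE8 (0.80), CDF1 (0.76), GI (0.70), CDF2 (0.69), GRP8 (0.67) and AT5G52660 (0.66), and PIF4 was lower (−0.78). For genes that passed the adjusted p in both media against +Fe+P, the difference between −Fe−P and −Fe+P did not pass in TOC1 (−0.07, SE 0.124), LNK3 (0.07, SE 0.4), LHY (0.32, SE 0.298) and CCA1 (0.45, SE 0.337), with standard errors that leave room for sizeable differences in LNK3, LHY and CCA1. At 39 and 52 h limma called 0 members between these media (0.82% and 2.21% of all tested genes, with 1 and 6 members at an unadjusted p under 0.05). The adjusted p alone was passed by 4.94% of all tested genes at 39 h and 27.1% at 52 h, where GRP8 (0.57, adjusted p = 0.0019) and RVE7 (−0.73, adjusted p = 0.00912) did so.

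PRR9 and TOC1 were the members whose response to −Fe−P differed between times in an interaction test. The PRR9 response changed by −1.34 from 39 to 52 h (SE 0.293, adjusted p = 0.0139) and by 1.07 from 52 to 76 h (SE 0.293, adjusted p = 0.0337), the only called members (1.12% and 0.762% of all tested genes). In −Fe−P PRR9 held 0.513, 0.399 and 0.416 TPM at 39 h, 0.711, 1.39 and 1.27 TPM at 52 h and 2.76, 3.95 and 3.41 TPM at 76 h, so that it stood between the 39 h and the 76 h level at 52 h, when the +Fe+P samples had already reached 2.63 to 3.91 TPM. The TOC1 response changed by 0.65 from 39 to 52 h (SE 0.176, adjusted p = 0.0386), under 2-fold. The −Fe+P responses had 0 called members in limma from 39 to 52 h (0.143% of all tested genes called, 4 members at an unadjusted p under 0.05) and 0 from 52 to 76 h (0.1%, 10 members). CDF3 was at −1.19 in the latter test (adjusted p = 0.118).

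The balance of the dawn and evening lists was put in 1 value per sample, the mean log2(TPM + 0.5) of the 17 dawn and morning genes minus that of the 11 afternoon and evening genes, as a description with no test. It lay between −2.25 and −1.66 in +Fe+P at 39 h, between 0.17 and 0.52 at 52 h and between −0.07 and 0.74 at 76 h. In −Fe+P it was −2.67 to −2.43, then −0.36 to −0.01, then −1.23 to −0.8. In −Fe−P it was −2.93 to −1.59, then −1.28 to −0.1, then −0.98 to −0.55. The deficient media lay below all +Fe+P samples at both 52 and 76 h. The value of −1.59 belonged to the −Fe−P 39 h replicate 1 and that of −1.28 to the −Fe−P 52 h replicate 1, whose group otherwise held −0.1 and −0.5. At 76 h the dawn and morning means of −Fe−P (4.42 to 4.7) overlapped those of +Fe+P (4.57 to 5.09). The afternoon and evening means did not (5.26 to 5.65 against 4.35 to 4.64). The ratio of LHY to TOC1 TPM at 76 h was 2.26, 4.02 and 3.51 with +Fe+P, 0.594, 0.528 and 0.375 with −Fe+P, and 0.548, 0.89 and 0.547 with −Fe−P. LHY was already known to be lower and TOC1 higher in the deficient samples at 76 h, so the ratio restates those changes and adds no separate evidence.

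**Figure D5:**
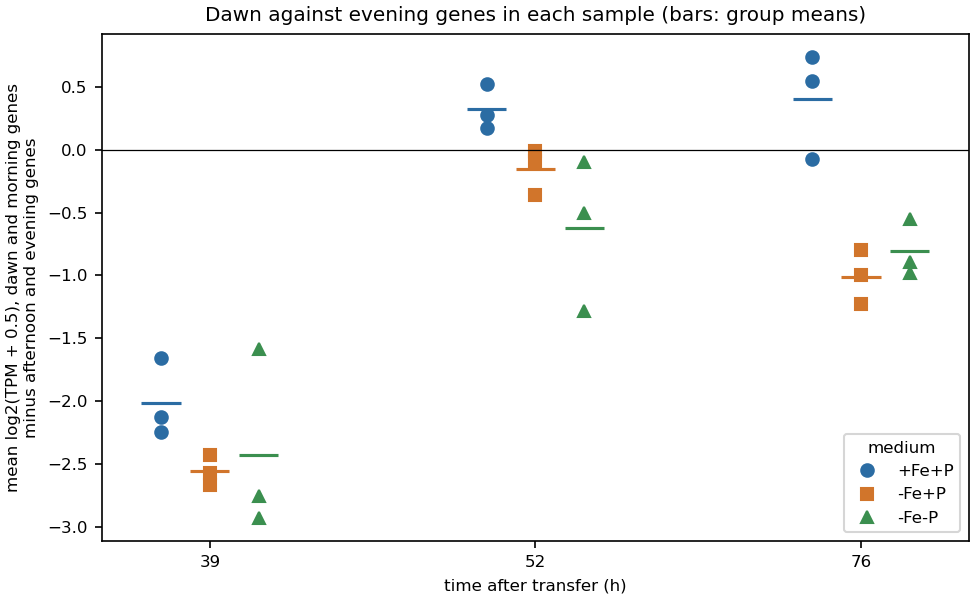
Mean log2(TPM + 0.5) of 17 dawn and morning genes minus that of 11 afternoon and evening genes, for each of the 27 samples by time after transfer in hours. Symbols are samples, short bars are group means and colour gives the medium. At 76 h the +Fe+P samples lay between −0.07 and 0.74 and all samples of the deficient media at −0.55 or below.

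The remaining members differed in how far they moved at all. Mean levels per length over all samples ran from 1050 TPM for GRP7, 227 TPM for GRP8 and 224 TPM for RVE2 through 60.2 TPM for RVE4 and 58.8 TPM for TOC1 down to 3.17 TPM for CO and 1.72 TPM for PRR9. The group means of LNK3, LNK4, PRR9 and LNK2 spanned 17.6, 16.3, 10.6 and 10.2-fold from the lowest to the highest of the 9 groups, and those of LKP2 and ZTL, light receptors of the FKF1 family, 1.44 and 1.45-fold. Still, ZTL in −Fe−P exceeded its control at 76 h by an amount under 2-fold (0.45, SE 0.0872, adjusted p = 0.000148). The evening complex subunit ELF3 passed the adjusted p in −Fe+P and −Fe−P at 76 h, with 0.66 and 0.90, and LUX did so in −Fe−P (0.56). PRR5, which follows PRR7 in the day, was at 0.98 in −Fe−P (adjusted p = 0.00228). CO (−0.70 in −Fe+P and −0.51 in −Fe−P) and PIF5 (−0.61 and −0.71) passed the adjusted p but not the 2-fold minimum at 76 h, while PIF4 passed the adjusted p only in −Fe−P (−0.93, adjusted p = 0.00252). RVE2, an output MYB gene at a mean of 224 TPM, held 195, 154 and 160 TPM in +Fe+P at 76 h. Its −Fe+P samples held 285, 232 and 252 TPM and its −Fe−P samples 375, 285 and 357 TPM, all above the control, with differences of 0.60 and 0.99 that passed the adjusted p only. GRP8, the close copy of GRP7, passed the adjusted p in −Fe−P at all 3 times (0.54, 0.51 and 0.72), and in −Fe+P at none. How reads that match both GRP7 and GRP8 were assigned is not given in the sources used here. RVE1 and CHE, with log2 fold changes between −0.18 and 0.19, did not pass in either medium at 76 h, and GRP7 passed the adjusted p in −Fe+P (0.81, adjusted p = 0.0113) and not in −Fe−P (0.35, adjusted p = 0.238).

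Further clock-related genes were counted in a pair of lists. Among 28 tested clock and light-signalling genes, 1 was upregulated and 0 downregulated at 76 h in either deficient medium, beside the 5.62% (−Fe+P) or 8.94% (−Fe−P) of all tested genes called, so the list was not above the background. The gene was in both cases JMJD5, a histone demethylase gene expressed in the evening. JMJD5 held 28.1, 14.3 and 15 TPM in +Fe+P, as against 53.7, 62.3 and 72.8 TPM with −Fe+P and 65.7, 54.8 and 70.7 TPM with −Fe−P, with fold changes of 1.75 and 1.77, and it was downregulated from 39 to 52 h in +Fe+P (−1.89). ASG4, a MYB-like gene of the RVE kind, was upregulated at 39 h under −Fe+P (1.58) as well as −Fe−P (1.13). At 52 h it was upregulated in −Fe+P (1.77) and passed only the adjusted p in −Fe−P (0.69), with a direct difference of −1.09 between −Fe−P and −Fe+P. In −Fe+P it held 7.13 ± 0.601 TPM at 76 h against 6.41 ± 1.13 TPM in +Fe+P (SD, n = 3). Its −Fe+P response changed by −1.62 from 52 to 76 h (SE 0.333, adjusted p = 0.0404). PRMT5, an arginine methyltransferase gene, was downregulated between −Fe+P and −Fe−P at 76 h (−1.17).

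Of 14 tested output genes, −Fe+P had 2 upregulated and 2 downregulated at 76 h, beside 4.42% higher and 1.2% lower among all tested genes. In −Fe−P the counts were 4 and 1, beside 6.34% and 2.6%, and the difference between the media in these counts was not tested. COR27, a cold-regulated gene that acts back on the clock, held 8.99, 6.12 and 6.02 TPM in +Fe+P at 76 h, as against 29.1, 29.3 and 39.3 TPM with −Fe+P and 28, 23.4 and 34.3 TPM with −Fe−P (2.14 and 1.95). AT4G33980 was upregulated by 2.02 and 1.89. CAT3, which encodes a heme-containing catalase and is clock-regulated, was downregulated in −Fe+P at all 3 times (−1.57, −2.04 and −1.66). Under −Fe−P it was likewise downregulated at 39 h (−1.54) and 52 h (−1.10). At 76 h it held 865, 841 and 789 TPM in control shoots, 244, 253 and 296 TPM under −Fe+P and 568, 635 and 744 TPM under −Fe−P. The −Fe−P level then passed only the adjusted p against +Fe+P (−0.37) and lay above that of −Fe+P (1.29). COL2, a relative of CO, was upregulated from 39 to 52 h in all 3 media (2.02, 1.87 and 1.35), and COR27 and CCL were downregulated in +Fe+P (−1.45 and −1.32). COL2 was also lower in the deficient media at 76 h. It then held 43.2, 75.9 and 67.4 TPM in +Fe+P, as against 21.8, 20.9 and 21.2 TPM with −Fe+P and 16.9, 27.1 and 22 TPM with −Fe−P.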

How the data were processed

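Messenger RNA of 27 Col-0 shoot samples was sequenced from oligo-dT-selected libraries. The authors aligned the reads to TAIR10 with HISAT2, tested read counts with DESeq2 and deposited TPM values, whose computation, read counting, strand and software versions are not given in the sources used here. How reads from close gene copies such as GRP7 and GRP8 were assigned is likewise not given.

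Groups came from the sample labels. Genes averaging 1 TPM or more, 18910 of 33602, were converted to log2(TPM + 0.5). The fit used limma (version 3.58.1, under R 4.3.3) with a separate mean for each of the 9 groups, no block and eBayes with a trend. Of 22 contrasts, 9 compared media, 9 times, and 4 the change of a response between times. Calls needed a Benjamini-Hochberg adjusted p under 0.05, adjusted over all tested genes within a contrast, and at least a 2-fold change. Fold changes on this scale understate the change of low genes. All 35 identifiers matched the reference.

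The genes and lists were chosen with earlier results of these data known. Replicate values are given for members called between media, and for the member of each functional list with the largest change from 39 to 52 h in +Fe+P. Of the other clock, light and output lists, the 3 called genes with the largest change per kind of contrast are named. Reads per sample were inferred from the step size of the values, whole within 0.02 reads for 24561 of 24561 genes seen in at least 10 samples. Motifs were searched in RefSeq TAIR10.1. The fitting code was tested on simulated data. The fit was repeated with a pseudocount of 0.1 or 1, with every gene above 0 in a sample kept, with a floor of 5 TPM on the mean, with scaling by the median of ratios, with only the groups compared, with a replicate block, with eBayes lacking the trend, with no fold minimum and without each replicate in turn.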

Additional observations from a re-analysis of the deposited data

Results flagged for a closer look

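PRR9 and TOC1 stood out because their difference between −Fe−P and +Fe+P was not the same at different times, by the interaction contrast of the limma fit. For PRR9 the log2 response changed by −1.34 from 39 to 52 h (SE 0.293, adjusted p = 0.0139) and by 1.07 from 52 to 76 h (SE 0.293, adjusted p = 0.0337). The latter call was lost under 9 of 20 alternatives, among them both other pseudocounts, and without −Fe−P 52 h replicate 1 it was 0.87 (adjusted p = 0.105). PRR9 had 13 to 256 reads per sample, the fewest of the tested members. The former call was lost without +Fe+P 39 h replicate 2 and in a fit of only the groups compared. For TOC1 the response changed by 0.65 from 39 to 52 h (SE 0.176, adjusted p = 0.0386), which passed the adjusted p and not the 2-fold minimum.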

How the results depend on the processing

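The 125 called member results gave 1876 values under the alternative settings. Of these values 1794 kept direction and call, 82 lost the call and 0 reversed. Throughout all settings 103 results kept their call. In the setting without a fold minimum a called gene cannot lose its call, and that setting is counted among the alternatives. The 2-fold minimum had the widest effect. Without it 2, 7 and 23 members passed at the 39, 52 and 76 h harvests in the −Fe+P against +Fe+P comparison, 3, 17 and 23 in −Fe−P against +Fe+P, and 2 and 13 in −Fe−P against −Fe+P at 52 and 76 h. Between 52 and 76 h 8 passed in −Fe+P and 8 in −Fe−P, of 34 tested, beside 11.3% and 23.7% of all tested genes, so that the −Fe−P count is close to the background. From 39 to 76 h 23 and 25 passed, beside 33.5% and 58.4%, and from 39 to 52 h in −Fe−P 23, beside 35.3%. For the change of the −Fe−P response from 39 to 52 h 2 passed, beside 4.19%. With pseudocount 1 the counts were 1 (−Fe−P against −Fe+P at 76 h), 1 (76 against 52 h in −Fe+P) and 0 (change of the −Fe−P response from 52 to 76 h), the last also 0 with pseudocount 0.1. With a minimum mean of 5 TPM, under which PRR9 is not tested, they were 1 for −Fe−P against −Fe+P at 76 h, 0 for 76 against 52 h in −Fe−P and 0 for both changes of the −Fe−P response. For 76 against 52 h in −Fe+P the count was 1 with no filter and 1 with the median of ratios, which gave 2 for the change of the −Fe−P response from 39 to 52 h. Fitting only the groups compared gave 1 for the change of the −Fe+P response from 52 to 76 h and 0 for both changes of the −Fe−P response. The causes of these shifts were not tested beyond what each setting does by construction.

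Leaving out 1 replicate at a time gave 8 to 14 calls for −Fe+P against +Fe+P at 76 h, 0 to 8 and 5 to 14 for −Fe−P against +Fe+P at 52 and 76 h, and 2 to 3 for −Fe−P against −Fe+P at 76 h. From 39 to 52 h the range was 18 to 19 in +Fe+P, 18 to 19 in −Fe+P and 12 to 17 in −Fe−P, from 39 to 76 h 19 to 20, 9 to 13 and 14 to 16, and from 52 to 76 h 0 to 0, 1 to 2 and 1 to 2. Changes of the −Fe−P response ranged from 0 to 2 calls in each step. With 1 replicate left out, that group rests on 2 samples.

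Replicate numbers are shared between groups, but the samples were not treated as paired. Of 54 pairs of same-numbered samples 13 had a correlation of deviations over 0.1 (range −0.415 to 0.365), and 10 of 27 samples correlated best with their own number. These correlations are over all tested genes. At 39 h replicate 1 was the highest sample in all 3 media for LHY, CCA1, RVE8, LNK2, LNK3 and LNK4. Its dawn minus evening value was also the highest there (−1.66 in +Fe+P, −2.43 in −Fe+P, −1.59 in −Fe−P). At 52 and 76 h the replicate with the highest value differed between media. An offset shared by replicate 1 at 39 h was not tested. A fit with the replicate block gave the same counts, for example 11 for −Fe+P and 8 for −Fe−P at 76 h, each against +Fe+P, and 19 for 52 against 39 h in +Fe+P. The block takes a single offset per replicate number over all times, so it does not cover an offset at 39 h alone.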
